A study of Mus musculus with 3 samples.

Results

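The glycolysis and pyruvate handling genes described here were 32 genes taken by symbol from a list of enzymes, transporters and regulators that carry glucose to lactate or into the mitochondrion. All 32 were found among the 27998 genes of the gene table, and each had counts. They were measured by droplet single-cell RNA sequencing (10x Chromium 3′ v3) of lung cells from MMTV-HER2/Neu mice on the FvB background, in which the MMTV promoter, active mainly in mammary epithelium, drives the HER2/Neu oncogene. Digested lungs were sorted into CD45-negative HER2-positive cells, which the labels call breast cancer cells or lung DCCs, and CD45-negative HER2-negative cells, which the labels call non-cancer lung cells. The early HER2-negative and early HER2-positive libraries came from mice of 14 to 18 weeks with no palpable tumor, and the late HER2-positive library from mice over 20 weeks of age with 1 or more primary tumors. Each of the 3 groups is 1 library, the number of mice behind it is not given in the sources used here, stage, age, sort and library cannot be told apart, no difference between groups has a replicate check, and no p-value is given.

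Barcodes were kept at 1000 or more unique molecular identifiers (UMIs, the counted RNA molecules) with under 25% of them mitochondrial, which left 6416 barcodes in the early HER2-negative, 7622 in the early HER2-positive and 6012 in the late HER2-positive library. Each barcode went to the first class whose rule it met: mammary (1% or more of its UMIs from the milk genes Csn3 and Wfdc18), AT2 (the surfactant-making alveolar type 2 cell, with 10% or more from Sftpc), airway (3 or more UMIs of Cyp2f2 and Foxj1), endothelial (2 or more of Cldn5 and Cdh5), mural (2 or more of Higd1b, Cox4i2 and Myh11) and fibroblast (2 or more of Pdgfra and Col1a2). The mammary class held 161 barcodes, all in the late HER2-positive library, and 0 barcodes in the early libraries, which allows a share of up to 0.0575% of the early HER2-negative and 0.0484% of the early HER2-positive barcodes (exact Clopper-Pearson limits). The sort label and the class rule therefore went apart. In the HER2-positive libraries the AT2 class held 3939 barcodes early and 3996 late, and the endothelial class 1558 and 486. The early HER2-negative library was mostly endothelial, with 5186 such barcodes and 46 of the AT2 class. In all, 14 pairs of library and class held 50 or more barcodes, and those are the ones compared.

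Markers that the rule did not use were read in each class. In the mammary class all 10 of 10 mammary markers were present with a summed level of 33126 CPM (UMIs scaled to a total of 1e+06 per class), against 537 and 578 in the early and late AT2 classes. Of the 6 alveolar type 1 markers the mammary class held Aqp5 at 6961 CPM. The others were low there, with Ager at 34.1, Cldn18 at 21.9, Hopx at 18.1, Rtkn2 at 1.08 and Pdpn at 0.270 CPM. Its AT2 markers summed to 1175 CPM, against 43767 CPM in the late AT2 class, and its leukocyte and mesothelial markers were all at 0. Median depth was 22179 UMIs per mammary barcode and 8837 per late AT2 barcode. The total of each library in the files ran from 25610135 to 54961019 UMIs, and the kept barcodes held 89.96% to 92.9% of it. Pairs of libraries shared 10 to 18 barcode sequences. Barcodes that met more than 1 class rule numbered 227, 1501 and 1161 in the 3 libraries. They were kept, no doublet caller was run, and the results without them are given where they differ.

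Glycolysis splits glucose into pyruvate in the cytosol. Hexokinase, phosphofructokinase and pyruvate kinase carry its irreversible steps, and most steps can be served by several isozymes with different tissue patterns. Lactate dehydrogenase turns pyruvate into lactate and back, while the pyruvate dehydrogenase complex sends pyruvate into the mitochondrial tricarboxylic acid cycle and is shut off by the pyruvate dehydrogenase kinases. Tumors often take up much glucose and release lactate, and many genes of the pathway are known targets of the hypoxia-inducible factors (HIF), which bind DNA at a core motif of ACGTG or GCGTG. In the lung, the AT2 cell makes surfactant lipid and is known to use both lactate and glucose as fuels, and endothelium is known to rely strongly on glycolysis.

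The promoters below are those of the 3 members with the highest and the 2 with the lowest level in the mammary relative to the AT2 class, among members at 20 CPM or more in either, and they are shown because those genes mark both ends of the comparison. They are RefSeq sequences of GRCm38.p6, from 250 bases before to 50 after the annotated start, read 5′ to 3′ on the gene's strand, with the bases of each HIF core motif (ACGTG or GCGTG, searched on both strands, so that CACGT and CACGC are the same motifs read from the other strand) in capitals. Aldoc has 2 annotated starts and Eno1 has 3, and the first is shown.
Aldoc, chr11:78322823-78323122, plus strand: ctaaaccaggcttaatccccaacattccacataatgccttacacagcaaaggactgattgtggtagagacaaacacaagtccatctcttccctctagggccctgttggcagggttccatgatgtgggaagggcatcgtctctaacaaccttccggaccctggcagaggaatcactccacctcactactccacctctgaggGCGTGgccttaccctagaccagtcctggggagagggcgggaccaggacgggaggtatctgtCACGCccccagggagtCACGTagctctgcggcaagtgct
Eno1, chr4:150236458-150236757, plus strand: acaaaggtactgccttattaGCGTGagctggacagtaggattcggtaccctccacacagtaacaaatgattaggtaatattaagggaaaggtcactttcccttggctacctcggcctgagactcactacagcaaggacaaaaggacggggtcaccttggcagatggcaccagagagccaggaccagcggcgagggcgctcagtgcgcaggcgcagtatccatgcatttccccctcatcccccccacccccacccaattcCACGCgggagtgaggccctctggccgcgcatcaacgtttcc
Pfkp, chr13:6648722-6649021, minus strand: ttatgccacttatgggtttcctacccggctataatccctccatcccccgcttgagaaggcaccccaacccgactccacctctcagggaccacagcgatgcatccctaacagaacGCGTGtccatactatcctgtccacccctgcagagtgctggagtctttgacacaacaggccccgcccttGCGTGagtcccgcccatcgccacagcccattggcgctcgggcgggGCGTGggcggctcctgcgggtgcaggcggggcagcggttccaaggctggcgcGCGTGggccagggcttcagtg
Pfkfb4, chr9:108991652-108991951, plus strand: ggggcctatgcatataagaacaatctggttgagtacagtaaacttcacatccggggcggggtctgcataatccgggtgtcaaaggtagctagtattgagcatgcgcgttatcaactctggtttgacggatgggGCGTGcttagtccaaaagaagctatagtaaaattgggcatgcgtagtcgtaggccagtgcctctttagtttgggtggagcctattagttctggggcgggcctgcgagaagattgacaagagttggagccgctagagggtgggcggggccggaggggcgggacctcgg
Slc16a1, chr3:104638414-104638713, plus strand: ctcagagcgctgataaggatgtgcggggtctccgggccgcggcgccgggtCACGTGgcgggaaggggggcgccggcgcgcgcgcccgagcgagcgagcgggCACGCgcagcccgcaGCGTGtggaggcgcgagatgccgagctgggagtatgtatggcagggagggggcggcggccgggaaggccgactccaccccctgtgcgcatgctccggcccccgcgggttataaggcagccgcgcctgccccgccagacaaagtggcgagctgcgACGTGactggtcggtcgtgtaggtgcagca
The window held 3 matches for Aldoc, 2 for Eno1, 4 for Pfkp, 1 for Pfkfb4 and 5 for Slc16a1, where CACGTG counts on each strand and overlaps itself. Of all members, the start with most matches was the first of Ldha, with 7. Over all members with a promoter in the table (31 of 32, with 47 starts), 36 starts or 76.6% held a match, against 14380 of all 32851 promoters or 43.8%. Base composition was not matched between these sets, and a match describes letters and not a binding site.

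**Figure D1:**
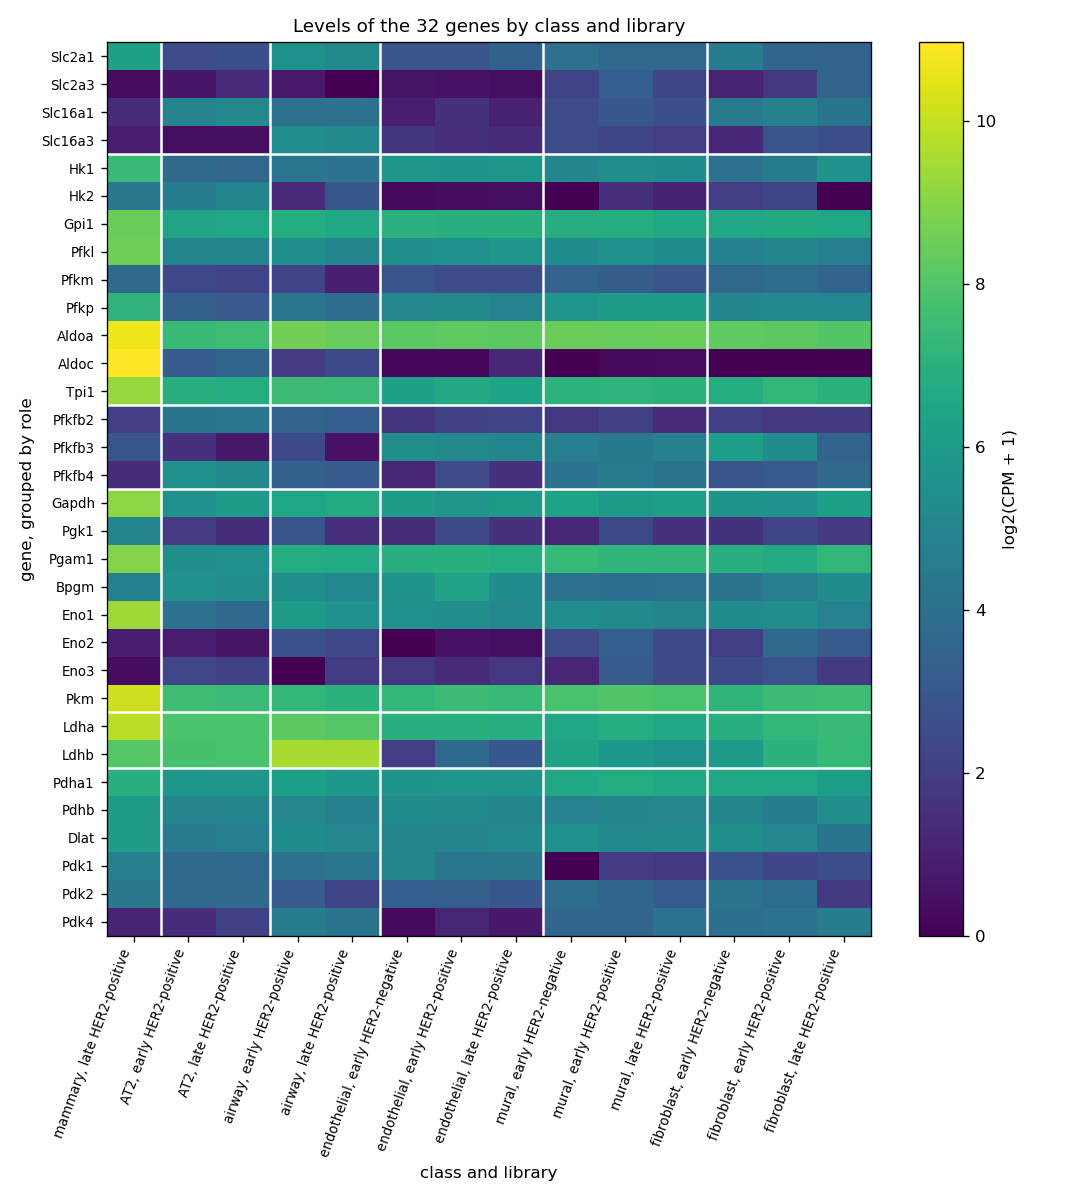
Level of each of the 32 members (rows, grouped by role) in each of the 14 pairs of library and class with 50 or more barcodes (columns), coloured by log2(CPM + 1). Brighter colours are higher levels. The mammary column is the brightest in 18 rows, with Aldoc at 1995 CPM, and the airway columns stand out for Ldhb at 751 and 741 CPM.

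All levels below are CPM of summed UMIs with exact 95% Poisson intervals, and all ratios carry exact 95% conditional intervals. These intervals cover counting error only. Because the assay counts 3′ ends, levels are compared between classes for 1 gene and not between genes. Over the 14 pairs of library and class, 18 members had their highest level in the mammary class, against 14.2% of all 16333 genes with 10 or more UMIs over those pairs. These were Slc2a1, the glycolytic enzymes Hk1, Gpi1, Pfkl, Pfkp, Aldoa, Aldoc, Tpi1, Gapdh, Pgk1, Pgam1, Eno1 and Pkm, then Ldha, the 3 pyruvate dehydrogenase subunit genes Pdha1, Pdhb and Dlat, and the kinase gene Pdk2. AT2 barcodes held the highest level of Slc16a1, Hk2, Pfkfb2 and Pfkfb4. Airway barcodes held that of Slc16a3, Ldhb and Pdk4, endothelial barcodes that of Bpgm and Pdk1, mural barcodes that of Eno3, and fibroblasts that of Slc2a3, Pfkm, Pfkfb3 and Eno2. Not every such top is resolved from the next class: Pdk1 was at 29.9 CPM (27.4 to 32.6) in HER2-negative endothelium and at 26.2 CPM (21.3 to 31.99) in mammary barcodes.

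The glucose transporter gene Slc2a1, which encodes GLUT1, was at 76.2 CPM (67.6 to 85.7) in the mammary class, while the airway level was 44.2 CPM early and 35.6 CPM late. Its level lay between 4.66 and 23.5 CPM in every AT2, endothelial, mural and fibroblast class. The mammary interval did not overlap that of any other whole class. Ciliated airway barcodes, given further on, were above the whole airway class and are not part of this comparison. The late endothelial value of 9.61 CPM had 37.9% of its UMIs in 1 barcode. Slc2a3, which encodes the GLUT3 transporter, was sparse everywhere, from 0 in late airway to 10.3 CPM in late fibroblasts on 4 UMIs. In early mural barcodes it was at 8.76 CPM (6.34 to 11.8) on 43 UMIs.

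The monocarboxylate transporters split by class. Slc16a1, encoding MCT1, which moves lactate and pyruvate in both directions, had an AT2 level of 29.3 CPM early and 35.0 CPM late, and was at 18.1 to 26.9 CPM in fibroblasts and at 0.915 to 1.93 CPM in endothelium. Slc16a3, encoding MCT4, known for lactate export, was at 39.9 and 34.2 CPM in the airway classes and at 0.345 and 0.328 CPM in the AT2 classes. Of the UMIs of both genes together, Slc16a1 took 98.8% and 99.1% in early and late AT2 barcodes and 29.5% and 32.4% in airway barcodes. The exact intervals of the AT2 and airway shares did not overlap in either library.

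The mammary class of the late library showed the largest set of differences, and it is compared with the AT2 class of the same library, so that sort, animal stage and library were the same. Across the pathway, 22 of 32 members were at least 1.5-fold higher in mammary barcodes and 8 were at least 1.5-fold lower. Over all 13746 genes with 10 or more UMIs over the pair, 45.2% were higher and 24% lower by that rule. The median log2 ratio was 1.62 over the members and 0.43 over all those genes, so the members are read against that shift. AT2 barcodes hold by rule 10% or more of their UMIs in 1 surfactant gene. With the totals rescaled by the trimmed mean of M values, which lowers every log2 ratio by 0.63, 18 members were higher and 8 lower. Mammary barcodes were also deeper, as given above, and the part that depth or the surfactant load plays was not tested.

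**Figure D2:**
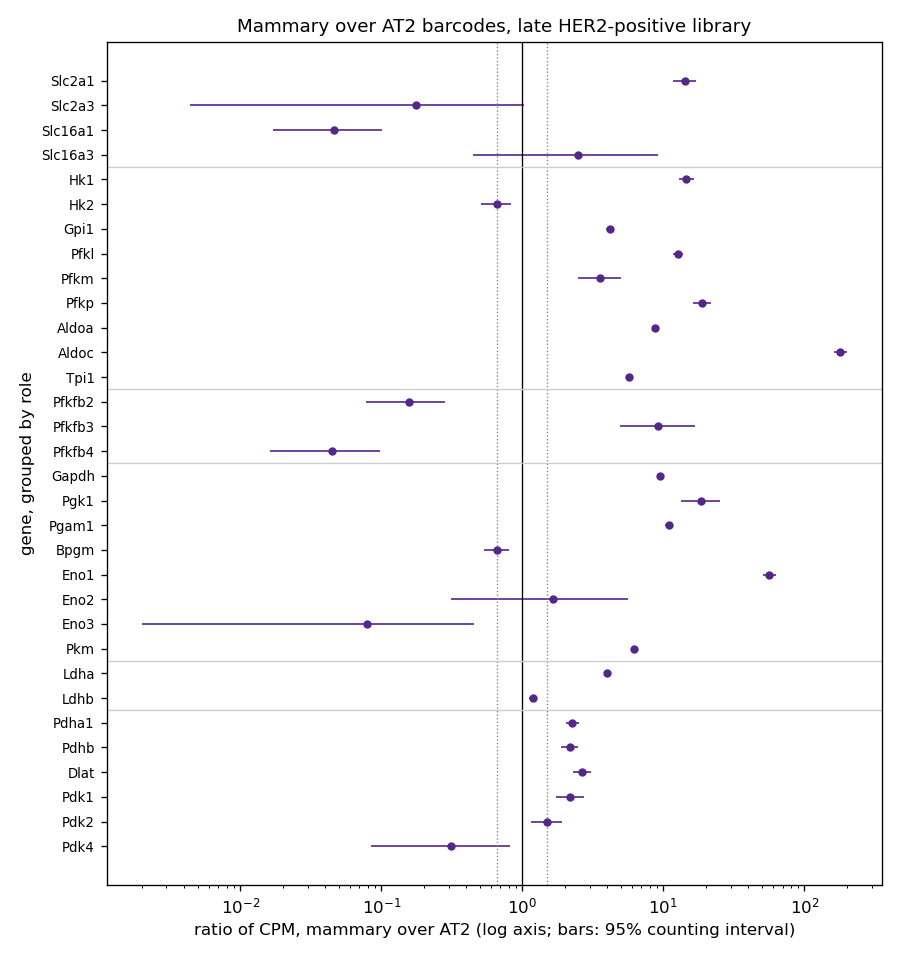
Ratio of the mammary over the AT2 class in the late HER2-positive library for each of the 32 members on a log axis, grouped by role. Points are ratios, bars are exact 95% counting intervals, and lines mark 1.5-fold in each direction. Aldoc stands at 180-fold and Eno1 at 56.5-fold, while Pfkfb4 and Slc16a1 are at 0.0447 and 0.0463.

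Among the transporters, 2 of 4 were higher and 2 lower in the mammary class. Slc2a1 was at 76.2 CPM against 5.38 CPM in AT2 barcodes, a ratio of 14.2 (11.8 to 17.1). Slc16a1 went the other way, at 1.62 against 35.0 CPM, a ratio of 0.0463 (0.0170 to 0.101). The other transporters rest on few mammary UMIs. Slc16a3 had 3 mammary and 12 AT2 UMIs, a ratio of 2.47 with an interval from 0.448 to 9.17 that holds 1, and Slc2a3 had 1 mammary and 56 AT2 UMIs, a ratio of 0.177 (0.0044 to 1.03).

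In upper glycolysis 8 of 9 members were higher and 1 lower. Hexokinase, which traps glucose as glucose 6-phosphate, differed by isozyme. Hk1 was at 167 against 11.4 CPM, 14.6-fold (12.9 to 16.5) higher in the mammary class, and Hk2 was at 19.7 against 29.9 CPM, a ratio of 0.660 (0.513 to 0.836). Hk2 was thus present in the mammary class but not above the AT2 class, and it made up 10.6% of the hexokinase UMIs there, against 72.4% in late AT2 barcodes. Gpi1, the isomerase that makes fructose 6-phosphate, was at 361 against 86.9 CPM.

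The 3 phosphofructokinase genes, which encode the subunits of the committed step, were all higher. Pfkl was at 377 against 29.7 CPM, 12.7-fold (11.7 to 13.8) higher, and Pfkp at 140 against 7.46 CPM, 18.7-fold (16.1 to 21.7) higher. Pfkm was low in both, at 12.7 against 3.58 CPM. Tpi1, the triose phosphate isomerase, was at 614 against 107 CPM.

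Aldolase, which cleaves fructose 1,6-bisphosphate, gave the widest difference of all members. Aldoc, known as the brain-type isozyme, had 7380 UMIs in 161 mammary barcodes (1995 CPM) and 405 UMIs in 3996 AT2 barcodes (11.1 CPM), 180-fold (163 to 200) higher. The ratio of Aldoa, known as the muscle-type isozyme that most tissues express, was 8.78 (8.49 to 9.09), from 1657 against 189 CPM. Aldoc took 54.6% (53.8 to 55.5) of the UMIs of both genes in mammary barcodes, against 5.54% in late AT2, 4.32% in early AT2 and at most 1.31% in the airway, endothelial, mural and fibroblast classes of any library. The excess was therefore larger for Aldoc than for Aldoa in that class, whatever the scaling of the totals.

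The Aldoc signal was spread over the mammary barcodes. It was counted in 98.1% of them, and in 72.7% (65.1 to 79.4) after each was thinned to 1000 UMIs. In late AT2 barcodes those shares were 7.38% and 0.826%. The estimated background share of 8.93% would give 10.9 of the 11.1 CPM there, from 122 CPM in barcodes of 1 to 100 UMIs. The part of background in the late AT2 level was not tested, and the 180-fold ratio is that of the measured counts. The estimate is rough, since it would also give 11.6 CPM in late endothelium, where 1.33 CPM was measured. In early AT2 barcodes it would give 1.24 of 7.77 CPM, and in late endothelial barcodes, at a median depth of 5399 UMIs, Aldoc was counted in 0.823% and after thinning in 0.206%. Over the 161 mammary barcodes the Aldoc level ran from 285 CPM at the 10th to 4088 CPM at the 90th percentile, with a median of 1775 CPM. In late AT2 barcodes 15.8% of the Aldoc UMIs sat in 1 barcode. Against the other classes of the same library, Aldoc in mammary barcodes was 437-fold (238 to 912) higher than in airway and 1505-fold (587 to 5524) higher than in endothelial barcodes, where it had 4 UMIs. Late fibroblasts had 0 Aldoc UMIs.

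The PFKFB genes encode bifunctional enzymes that set fructose 2,6-bisphosphate, the activator of phosphofructokinase, and 1 of 3 was higher and 2 lower in the mammary class. Pfkfb4 was at 1.62 against 36.3 CPM, a ratio of 0.0447 (0.0164 to 0.0975), and Pfkfb2 at 2.97 against 18.8 CPM, a ratio of 0.158 (0.0785 to 0.284). Pfkfb3 was at 6.22 against 0.683 CPM, 9.10-fold (4.94 to 16.7) higher. That Pfkfb3 level was still under the 30.8 CPM of the late endothelial class.

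Of the 8 lower glycolysis genes 6 were higher and 2 lower. Gapdh, the glyceraldehyde 3-phosphate dehydrogenase, was at 553 against 58.2 CPM, and Pgam1, the phosphoglycerate mutase, at 480 against 43.8 CPM, 10.96-fold higher. Pgk1, the first ATP-making kinase of the pathway, was at 31.1 against 1.69 CPM, 18.4-fold (13.4 to 25.4) higher. Pkm, the pyruvate kinase, was at 1108 against 178 CPM, 6.22-fold higher; the 3′ counts do not tell its splice forms apart.

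The enolases, which make phosphoenolpyruvate, differed by isozyme as well. Eno1 was at 684 against 12.1 CPM, 56.5-fold (51.1 to 62.6) higher in the mammary class, and its level there was 15.4 to 24.1 times that in each other class of the late library. Eno3, the muscle-type isozyme, had 1 mammary and 124 AT2 UMIs, a ratio of 0.0798 (0.0020 to 0.453), and Eno2, the neuronal type, had 3 and 18, with an interval of its ratio from 0.311 to 5.65. Bpgm, which makes 2,3-bisphosphoglycerate, was lower, at 27.0 against 41.1 CPM, a ratio of 0.658 (0.532 to 0.806).

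Some of these genes have near-identical copies, so reads of their 3′ ends can be split or dropped in counting. Of the 50-base words in the last 500 bases of the transcript, 90.5% for Gapdh and 75.2% for Eno1 occurred in another gene, as did 24.4% for Ldhb, 8.87% for Pdhb and 7.32% for Pgk1. The levels of those 5 genes are therefore uncertain; for Ldhb and Pdhb the sharing gene is not in the gene table. With its copy Eno1b added, the mammary to AT2 ratio of Eno1 was 56.2, and with Pgk1-rs7 added that of Pgk1 was 17.7.

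Lactate dehydrogenase is a tetramer of A and B subunits. Ldha, the subunit known to favour making lactate, was at 919 against 232 CPM, 3.97-fold (3.81 to 4.13) higher in mammary barcodes. Ldhb, known to favour using lactate, was at 268 against 226 CPM, a log2 ratio of 0.25 that turned to -0.07 with surfactant and milk genes left out of the totals and to -0.38 with the trimmed mean of M values, so its direction depends on scaling. The share of Ldhb among the UMIs of both genes does not depend on it, and was 22.6% (21.4 to 23.9) in mammary and 49.4% (48.6 to 50.1) in late AT2 barcodes.

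Of the 6 pyruvate dehydrogenase genes 4 were higher and 1 lower. Pdha1 and Pdhb, the subunits of its first enzyme, were at 120 against 52.9 CPM and at 65.7 against 30.4 CPM. Dlat, the second enzyme, was at 66.2 against 24.8 CPM, 2.67-fold higher. Of the kinases that shut the complex off, Pdk1 was at 26.2 against 11.97 CPM, 2.19-fold (1.74 to 2.74) higher, and Pdk2 at 19.2 against 12.9 CPM, a log2 ratio near -0.06 with the trimmed mean of M values. Pdk4 had 4 mammary and 126 AT2 UMIs, a ratio of 0.314 (0.0843 to 0.824). The 5 ratios above 1 in this list ran from 1.49 to 2.67. With the trimmed mean of M values Pdha1, Pdhb and Pdk1 fell short of 1.5-fold, and only Dlat was still higher by that rule.

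Other genes of carbon metabolism were read from lists outside the members. In the tricarboxylic acid cycle 10 of 17 genes were higher in the mammary class and 2 lower, with Idh3a at 3.30-fold and Sdhd at 2.97-fold on the high side, and Idh2 at 0.495 and Ogdh at 0.414 on the low side. In the pentose phosphate pathway 3 of 8 were higher and 1 lower, with Taldo1 at 472 against 126 CPM and H6pd at 5.95 against 44.5 CPM. Of 26 other glycolysis and pyruvate genes with enough UMIs, 10 were higher and 11 lower. Mpc2, a subunit of the mitochondrial pyruvate carrier, was at 476 against 226 CPM, and the gluconeogenic enzyme gene Fbp2 at 0.811 against 50.3 CPM. Read against the 45.2% of all genes, the share of higher genes was above it for the cycle and below it for the pentose phosphate list and the last one.

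HIF-induced genes outside glycolysis were higher for 9 of 14 and lower for 2. Egln3, the oxygen-sensing hydroxylase, was at 329 against 0.847 CPM and Car9, a carbonic anhydrase, at 30.01 against 0.355 CPM. The collagen hydroxylase genes went the other way, with P4ha1 at 33.8 against 132 CPM and P4ha2 at a ratio of 0.0596. All 15 proliferation genes with enough UMIs were higher, among them Mki67 at 140 against 0.929 CPM. Barcodes with 3 or more UMIs of division genes numbered 14 of the 161 and had Aldoc at 1081 CPM (982 to 1187), below the 2108 CPM (2059 to 2158) of the other 147.

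The remaining classes carried their own isozyme patterns, which are described next for AT2 barcodes against endothelium. Slc16a1 was 15.2-fold (8.85 to 28.7) higher in AT2 than in endothelial barcodes of the early HER2-positive library and 35.2-fold (12.03 to 171) higher in the late one. Ldhb was at 221 against 12.5 CPM in the early library, 17.7-fold (14.3 to 22.2) higher, and at 226 against 6.96 CPM in the late one, 32.4-fold (21.2 to 52.4) higher. In both libraries the AT2 and endothelial intervals of Slc16a1 and of Ldhb were far apart.

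Hexokinase was reversed between these classes. Hk1 was at 12.98 against 49.7 CPM in the early and 11.4 against 55.0 CPM in the late library, ratios of 0.261 and 0.208. Hk2 was at 24.1 and 29.9 CPM in AT2 barcodes, while the endothelial classes had 2 and 1 UMIs of it, ratios of 81.2 (22.4 to 672) and 90.3 (16.2 to 3568). Hk2 made up 65.0% and 72.4% of the hexokinase UMIs in early and late AT2 barcodes and 0.417% to 0.599% in the 3 endothelial classes. No interval of the AT2 shares reached any of the endothelial shares.

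The PFKFB genes were split between the same classes. Pfkfb4 was at 47.0 and 36.3 CPM in early and late AT2 barcodes and 9.91-fold and 18.3-fold higher there than in endothelium. Pfkfb2 was 5.30-fold and 5.16-fold higher. Pfkfb3 was lower in AT2 barcodes, at 1.80 against 35.0 CPM in the early and 0.683 against 30.8 CPM in the late library, ratios of 0.0513 and 0.0222. Pfkfb3, known as a driver of endothelial glycolysis, was at 30.8 to 41.3 CPM in the 3 endothelial classes and at 10.3 to 69.4 CPM in fibroblasts, where the late value rests on 4 UMIs.

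Counted over the list, 9 members were higher and 9 lower in AT2 than in endothelial barcodes of the early HER2-positive library, against 19% of all genes higher and 54.9% lower. In the late library 10 were higher and 10 lower, against 21% and 54.9%. The median log2 ratio of the members was -0.26 and -0.01, and that of all genes -0.70 and -0.72. With the trimmed mean of M values 15 were higher and 5 lower in the early library, and 19 and 4 in the late one, so the split depends on the scaling. By the unscaled rule 7 members were higher in both libraries (Slc16a1, Hk2, Aldoc, Pfkfb2, Pfkfb4, Ldha and Ldhb) and 7 lower in both (Slc16a3, Hk1, Pfkp, Aldoa, Pfkfb3, Pgam1 and Eno1). The background estimate given above for Aldoc in late AT2 barcodes applies to its place in this list. With the trimmed mean of M values the late ratio of Aldoa turned to a log2 value of 0.26. In HER2-positive endothelium AT2 markers summed to 793 CPM early and 714 CPM late, against 79.0 CPM in the HER2-negative class, and their part in the endothelial levels was not tested.

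**Figure D3:**
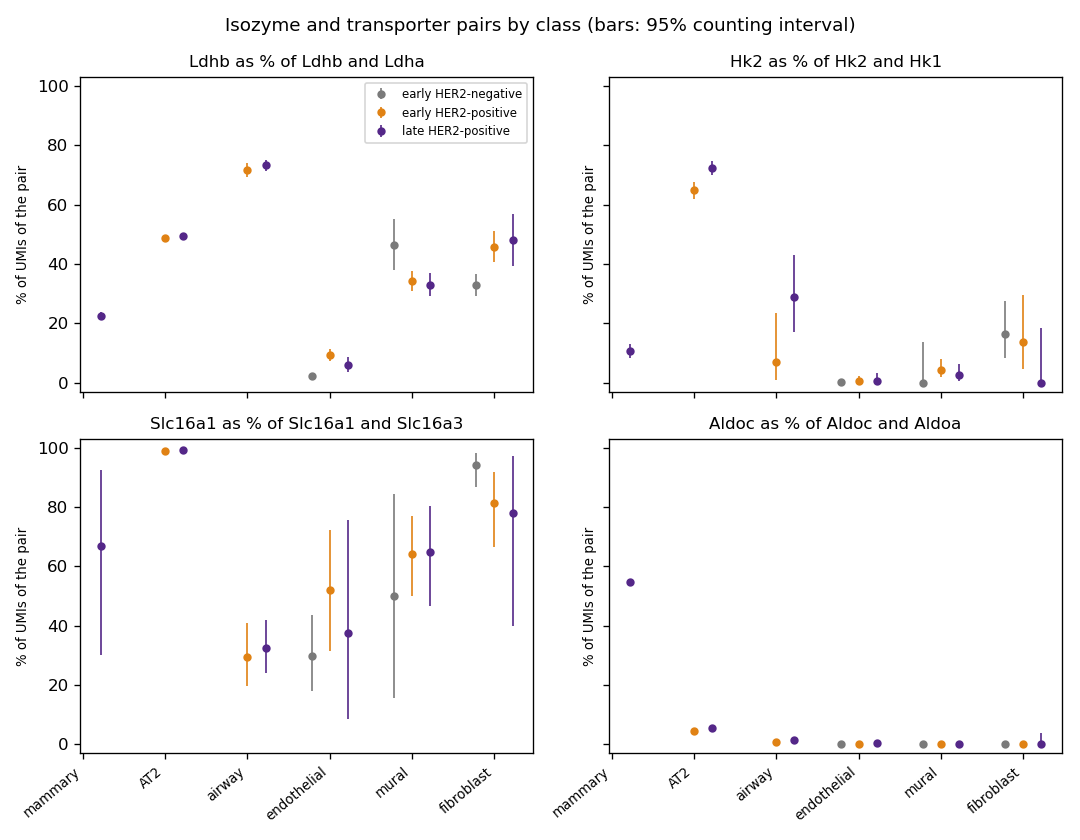
Share of the first gene among the UMIs of both genes of a pair, in percent, for each library and class with 50 or more barcodes. Points are shares and bars exact 95% Clopper-Pearson intervals. Ldhb runs from 2.41% in early HER2-negative endothelium to 73.3% in late airway barcodes, and Aldoc reaches 54.6% in the mammary class.

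The make-up of lactate dehydrogenase differed between classes. The Ldhb share was 71.8% and 73.3% in early and late airway barcodes, 48.9% and 49.4% in AT2 barcodes, 33.0% to 48.1% in fibroblasts, 33.0% to 46.4% in mural barcodes and 2.41% to 9.21% in endothelium. The order of fibroblast and AT2 barcodes is not resolved. The AT2 shares lie inside the fibroblast intervals of the same libraries, 40.6% to 51.0% early and 39.2% to 57.0% late. The mural share was below both in the HER2-positive libraries, at 34.4% (31.1 to 37.7) early and 33.0% (29.1 to 37.1) late. In the HER2-negative library mural barcodes were above fibroblasts instead, at 46.4% (37.9 to 55.1) against 33.0% (29.3 to 36.8). In endothelium the share was 2.41% (1.80 to 3.14) in the HER2-negative and 9.21% (7.41 to 11.3) in the early HER2-positive library, where the estimated share of background RNA was 8.29% and 21.5% of the class. That background share would give 3.16, 39.2 and 19.6 CPM of Ldhb in the HER2-negative, early HER2-positive and late endothelial classes, where 2.97, 12.5 and 6.96 CPM were measured. The endothelial Ldhb levels are thus at or under what this estimate gives. The estimate is rough, since it lies well above the measured level in both HER2-positive classes. The part of background in the endothelial Ldhb levels was not tested.

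Airway barcodes had levels of several members that set them off from the AT2 class in both HER2-positive libraries. Slc16a3 was 116-fold (58.3 to 254) and 104-fold (56.4 to 211) higher there in the early and late library. Slc2a1 was 9.49-fold and 6.61-fold higher, and Ldhb 3.41-fold (3.19 to 3.64) and 3.29-fold (3.11 to 3.47) higher. Pdk4, a kinase induced by fasting in many tissues, was at 23.9 against 1.66 CPM and at 17.8 against 3.44 CPM. Hk2 and Pfkfb4 were lower, Pfkfb4 at ratios of 0.201 and 0.214.

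The airway class is a mixture, so it was divided by the counts of 5 ciliated cell markers, a division chosen after the values were seen because an earlier one by Foxj1 over Cyp2f2 put only 3 and 2 barcodes on the ciliated side. Barcodes with 20 or more ciliated UMIs numbered 83 in the early and 113 in the late library, and those with under 5 numbered 61 and 75. Ldhb was at 1201 against 242 CPM in the early library, 4.96-fold (4.16 to 5.96) higher with ciliated markers, and at 1123 against 346 CPM in the late one, 3.24-fold (2.88 to 3.66) higher. Slc16a3 was at 70.6 CPM in ciliated barcodes of the early and at 66.5 CPM in those of the late library. It had 0 UMIs in the others, where 3 UMIs would have been 4.97 and 2.94 CPM. The high airway levels of Slc16a3 were thus in the ciliated barcodes.

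Other members also differed along that division. Aldoa was at 549 against 210 CPM in the early and 509 against 179 CPM in the late library. Slc2a1 was at 58.1 against 23.2 CPM and at 61.0 against 6.87 CPM. Pdk4 was 8.35-fold (2.60 to 42.8) and 2.89-fold higher in ciliated barcodes, whose intervals are wide because the counts were few. In the barcodes with under 5 ciliated UMIs the secretory gene Scgb1a1 alone made 240250 and 390378 CPM, which lowers the CPM of every other gene there, and the part of this in the ratios was not tested.

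**Figure D4:**
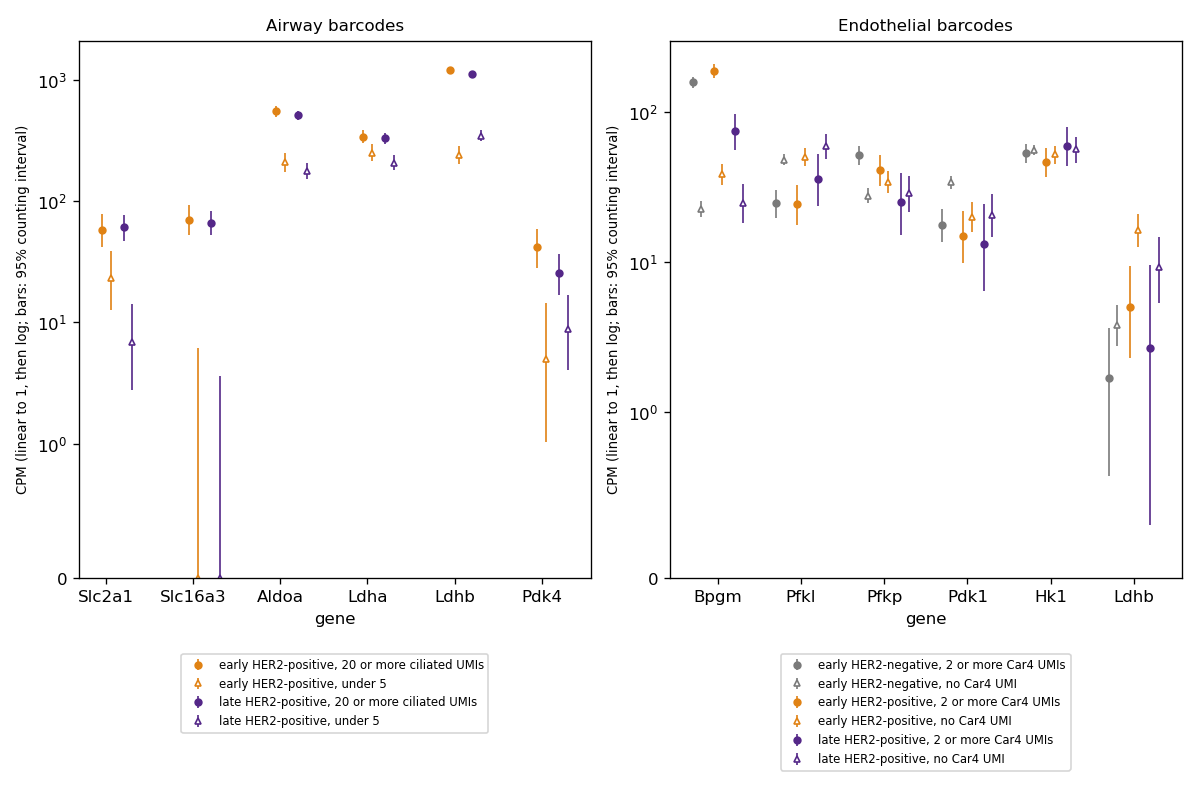
Levels in CPM (linear to 1, then log) of 6 members each in airway barcodes with and without ciliated markers and in endothelial barcodes with 2 or more Car4 UMIs and with none. Bars are exact 95% counting intervals. Ldhb is at 1201 and 1123 CPM in ciliated barcodes, and Bpgm is higher with Car4 in all 3 libraries.

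Bpgm had its highest level of the 14 pairs in early HER2-positive endothelium. Its product 2,3-bisphosphoglycerate is known to regulate oxygen release from hemoglobin in red cells. Its level was 50.2 CPM (46.9 to 53.6) in the early HER2-negative, 79.9 CPM (73.3 to 86.9) in the early HER2-positive and 38.5 CPM (31.8 to 46.1) in the late HER2-positive endothelial class. Those 3 intervals did not overlap. The late endothelial level was not resolved from that of late AT2 barcodes, 41.1 CPM, or fibroblasts, 38.8 CPM. Erythroid markers summed to 2120, 500 and 5.30 CPM in the 3 endothelial classes. In the 278 HER2-negative barcodes that met no class rule they summed to 472720 CPM, and Bpgm was at 509 CPM. Without barcodes holding 0.1% or more erythroid UMIs, the counts of members in both endothelial comparisons between libraries, given further on, were the same.

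Bpgm followed Car4, a carbonic anhydrase that marks one kind of lung capillary endothelium, in a division also chosen after the values were seen. Barcodes with 2 or more Car4 UMIs had 157 against 22.4 CPM in those with none in the early HER2-negative library, 6.995-fold (6.02 to 8.14) higher. In the early HER2-positive library the levels were 186 against 38.2 CPM, 4.88-fold (4.02 to 5.95) higher. In the late library they were 74.0 against 24.8 CPM, 2.98-fold (1.98 to 4.50) higher. The direction was the same in all 3 libraries, and Pfkl went the other way in all 3, at ratios of 0.512, 0.484 and 0.607. Car4-high barcodes were 15.4%, 20.7% and 16.7% of the endothelial class, and they were deeper, with median UMIs of 3959 against 2899.5, 4749 against 3481 and 7187 against 4859. Within those without Car4 the early over late Bpgm ratio was 1.54 (1.10 to 2.19), and within those with 2 or more it was 2.52 (1.89 to 3.41). The early HER2-negative over early HER2-positive ratio was 0.587 (0.479 to 0.722) without Car4 and 0.842 (0.734 to 0.966) with 2 or more.

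Mural barcodes, which hold pericytes and smooth muscle, were compared with endothelial barcodes of the same library. In the early HER2-positive library 13 of 31 members with enough UMIs were higher and 3 lower, against 28.8% and 19.3% of all genes. In the late one 11 of 30 were higher and 3 lower, against 29% and 20.1%. Member medians were log2 0.31 and 0.28, and those of all genes 0.11 and 0.12. The members that were higher in both libraries were 10: Slc2a3, Slc16a1, Slc16a3, Pfkp, Pfkfb4, Eno2, Eno3, Ldhb, Pdha1 and Pdk4. The members lower in both were Bpgm and Pdk1. Barcodes that met more than 1 class rule were 627 of 1352 early and 514 of 931 late mural barcodes, and without them 11 members were higher early and 7 late, with Eno3 turned to log2 -0.10 in the late library. In the early HER2-negative library, where the mural class held 221 barcodes, 8 of those 10 and both of the lower ones were on the same side by 1.5-fold, and Eno3 was on the other.

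The values behind this show a different set of isozymes. Slc2a3 was at 8.76 CPM in early mural barcodes, 19.7-fold (6.30 to 99.2) higher than in endothelium, and 11.9-fold (1.84 to 497) higher in the late library, where endothelium had 1 UMI. Pfkp was at 66.6 against 35.3 CPM in the early library and 2.26-fold higher in the late one. Pdha1 was at 105 against 55.6 CPM in the early library, and 1.79-fold higher in the late one.

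The kinases of pyruvate dehydrogenase changed places. Pdk4 was at 10.998 against 1.19 CPM in the early and 17.2 against 0.663 CPM in the late library, ratios of 9.27 (4.39 to 22.6) and 25.9 (6.92 to 218). Pdk1 was at 2.85 against 18.8 CPM and 2.46 against 19.2 CPM, ratios of 0.151 and 0.128. Pdk1 was thus the endothelial and Pdk4 the mural gene of this pair, and in the early HER2-negative library Pdk1 had 0 UMIs in mural barcodes and 29.9 CPM in endothelium.

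Within the mural class, barcodes with more Myh11 (smooth muscle) and those with more pericyte UMIs differed. Pdk4 was at 32.9 against 1.76 CPM in the early HER2-negative, 19.9 against 4.01 CPM in the early HER2-positive and 47.7 against 4.83 CPM in the late library. Ldhb was at 140 against 52.7, 96.1 against 26.2 and 95.5 against 24.2 CPM. Ldha was at 144 against 68.5, 156 against 72.1 and 127 against 75.9 CPM. Smooth muscle was higher in each library for these 3 genes, whereas Pfkfb3 was lower in smooth muscle in each, at 8.23 against 31.6, 12.5 against 27.3 and 19.6 against 30.02 CPM. The HER2-negative smooth muscle barcodes numbered 53 with 243150 UMIs in all, so Pdk4 and Pfkfb3 there rest on few UMIs. More than 1 class rule was met by 39 of those 53, by 234 of 454 early HER2-positive and by 115 of 187 late ones. For pericytes it was 79 of 168, 393 of 898 and 399 of 744, and their part was not tested.

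Other genes near the pathway also separated mural and AT2 barcodes from endothelium. Slc2a4, the insulin-responsive glucose transporter gene, was at 21.8 against 0.741 CPM in early mural and endothelial barcodes. Pck2, a mitochondrial enzyme that makes phosphoenolpyruvate, was 3.06-fold and 3.90-fold higher in mural barcodes of the early and late library. Fbp2 was at 56.5 against 1.33 CPM in early AT2 and endothelial barcodes, and Tkt of the pentose phosphate pathway at 222 against 79.3 CPM. Fbp2 was thus highest where Hk2 and Pfkfb4 were, in the AT2 class.

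The comparison of stage was early against late HER2-positive barcodes of the same class. Most members differed little. In the AT2 class Ldha had an early over late ratio of 0.997, Pgam1 of 0.996, Pkm of 1.04 and Gapdh of 0.769. By the 1.5-fold rule 3 of 32 members were higher in the early library and 2 lower, against 15.3% and 3.66% of all genes, and the member and all-gene medians were log2 -0.00 and 0.10. Smooth muscle markers in the AT2 class summed to 473 CPM early and 52.6 CPM late, pericyte markers to 153 and 37.8 CPM and endothelial markers to 137 and 53.5 CPM, and their part in these ratios was not tested. Pgk1 was at 2.90 against 1.69 CPM, 1.71-fold (1.22 to 2.42) higher early, and Pdk4 at 1.66 against 3.44 CPM, a ratio of 0.481 (0.338 to 0.676). Slc2a3 was at 0.587 against 1.53 CPM, a ratio of 0.384 (0.209 to 0.670). Pfkfb3 was 2.63-fold higher early, but its log2 ratio of 1.39 went to 0.08 without barcodes that met more than 1 class rule, and Eno2, the third higher gene, changed sign there to -0.11. All 5 of these genes were low in AT2 barcodes, and the abundant members did not reach 1.5-fold.

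In endothelium 6 of 28 members with enough UMIs were higher early and 1 lower, against 12% and 5.81% of all genes. Bpgm was 2.08-fold (1.70 to 2.56) and Ldhb 1.79-fold (1.10 to 3.04) higher early. Pgk1, at 4.45 against 1.99 CPM, had an interval from 0.916 to 6.57. The others were Slc16a1, Pfkfb4 and Pdk4 on the higher side and Eno3 on the lower. With background RNA taken off, 3 were higher and 2 lower. Of the genes common in AT2 barcodes, Ldhb, Slc16a1 and Pfkfb4 were among those higher in early endothelium, where the background share was 21.5% early and 9.46% late. Smooth muscle markers summed to 544 and 199 CPM and pericyte markers to 290 and 173 CPM in those classes. The part of these was not tested.

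In the mural class 6 of 31 members were higher early and 1 lower, against 12.7% and 6.57%. Slc2a3 was at 8.76 against 3.93 CPM, 2.23-fold (1.23 to 4.24) higher, the reverse of its direction in AT2 barcodes. Eno2 was 1.98-fold (1.12 to 3.65) higher, and Pdk4 had a ratio of 0.640 (0.440 to 0.925). At equal weight per barcode, and without barcodes of more than 1 class rule, Pdk4 fell short of 1.5-fold and 0 members were lower. Pgk1, at 4.48 against 1.97 CPM, had an interval from 0.978 to 5.92, and Hk2, Pfkfb2 and Eno3 made up the rest on few UMIs. Pgk1 was thus on the early side in all 3 classes, with intervals that hold 1 in endothelium and mural barcodes. The member medians were log2 0.14 in endothelium and 0.21 in the mural class, against 0.06 and 0.04 over all genes.

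The comparison of sort was early HER2-negative against early HER2-positive barcodes, and it is counted here for endothelium, the class with most barcodes over both libraries. Of 29 members with enough UMIs 2 were higher in the HER2-negative library and 7 lower, against 7.06% and 13% of all genes, with medians of log2 -0.03 and -0.02. Pdk1 was at 29.9 against 18.8 CPM, 1.59-fold (1.31 to 1.94) higher in the HER2-negative library, and Eno3 had an interval that holds 1. On the lower side Ldhb had a ratio of 0.239 (0.166 to 0.341), Pfkfb4 of 0.253 (0.139 to 0.453), Pgk1 of 0.386 (0.225 to 0.662) and Bpgm of 0.628 (0.564 to 0.701), along with Slc16a1, Pfkfb2 and Pdk4. Ldhb, Pfkfb4, Slc16a1 and Pfkfb2 are all genes with high AT2 levels, and Ldhb, Pfkfb4, Slc16a1 and Pdk4 were higher in mural than in endothelial barcodes. The HER2-positive endothelial class had the higher AT2 marker sum and background share given above, and its smooth muscle markers summed to 544 against 21.1 CPM and its pericyte markers to 290 against 31.0 CPM. The part of these in the ratios was not tested. With background RNA taken off, 4 were higher and 3 lower, Ldhb and Pfkfb4 had too few UMIs left to count, Pfkfb2 turned to log2 1.02, and Pgk1, Bpgm and Pdk1 kept their directions. Abundant members such as Hk1, at 54.6 against 49.7 CPM, and Ldha, at 121 against 123 CPM, were close in both.

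Fibroblasts (684 HER2-negative and 268 HER2-positive barcodes) and mural barcodes (221 and 1352) were in both early libraries too. Ldhb was lower in the HER2-negative library in fibroblasts, at 58.8 against 129 CPM, a ratio of 0.455 (0.369 to 0.561). In mural barcodes Ldhb went the other way, at 78.8 against 57.0 CPM on 64 and 280 UMIs. AT2 markers summed to 29.8 CPM in HER2-negative and 682 CPM in HER2-positive fibroblasts, and their part was not tested. Pfkfb3 was at 69.4 against 37.7 CPM in fibroblasts, 1.84-fold (1.35 to 2.56) higher, and Slc2a1 at 23.5 against 10.8 CPM, 2.18-fold (1.23 to 4.17) higher. Eno2 had a fibroblast ratio of 0.256 (0.108 to 0.588) and Slc16a3 of 0.233 (0.0600 to 0.808), each on under 20 UMIs per library. In mural barcodes Eno3 alone had a ratio of 1.5-fold or more with an interval that leaves out 1, at 0.163 (0.00403 to 0.968) on 1 and 37 UMIs.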

How the data were processed

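The deposited matrices hold raw counts of UMIs per gene and barcode, from matrix software 3.1.0 per the file headers, and the submitters' processing notes name build mm10. Which aligner and gene annotation were used is not stated in the labels or headers. Each matrix lists 6794880 barcodes, so empty droplets are included. Members and lists were chosen with earlier results of these data known.

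UMIs were summed per library and class as defined in the report, with Python 3.11.15, numpy 2.4.6, scipy 1.17.1, pandas 2.3.3 and matplotlib 3.10.9. Levels carry exact Poisson, ratios exact conditional and shares Clopper-Pearson 95% intervals. A gene counted as higher or lower at 1.5-fold with 10 or more UMIs over the pair. Outside the members, genes were named from preset lists only at 1.5-fold, with an interval leaving out 1 and 20 CPM or more on one side. Background RNA was estimated from barcodes of 1 to 100 UMIs. For detection shares, and for the rule on division genes, each barcode was thinned to 1000 UMIs. The ratio and the 1.5-fold call were tested on simulated Poisson counts with changes planted in well-counted genes. Low-count genes and variation between barcodes, doublets and background were not simulated. Alternatives changed the barcode minimum and mitochondrial limit, the totals, the weighting, background, count minimum, and barcodes that were shared, met more than 1 rule or dominated a gene.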

Additional observations from a re-analysis of the deposited data

Results flagged for a closer look

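Slc2a3, the GLUT3 gene, moved in opposite directions between stages in different classes: its early over late HER2-positive ratio was 2.23 (1.23 to 4.24) in mural and 0.384 (0.209 to 0.670) in AT2 barcodes. The difference between the classes was not tested, since each group has 1 library.

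Barcodes of 1 to 100 UMIs, which none of the comparisons between classes use, held RNA of the members at levels that differed between the late HER2-positive and the early HER2-negative library in both directions. Aldoc was at 122 against 3.07 CPM there, a ratio of 39.9 (16.9 to 124) on 338 and 5 UMIs, and it was at 8.47 CPM in the early HER2-positive library. Ldhb was at 207.6 against 38.1 CPM, a ratio of 5.45 (4.19 to 7.20), and at 182 CPM in the early HER2-positive library. The ratio was 9.83 (3.18 to 49.3) for Pfkfb2 and 7.74 (3.79 to 18.4) for Pfkfb4. On the lower side were Pfkfb3 at 0.221 (0.132 to 0.359), Pdk1 at 0.536, Hk1 at 0.578, Pgam1 at 0.648, Dlat at 0.666 and Bpgm at 0.693, all with intervals that leave out 1. Pfkfb2, Pfkfb4 and Ldhb had high levels in AT2 barcodes and Aldoc in mammary barcodes, and the source of this RNA was not tested.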

How the results depend on the processing

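No paired analysis was possible because each group has 1 library. Low members limit the precision most: under about 10 UMIs a ratio can move past 1 on a few molecules. A minimum of 500 UMIs per barcode, and leaving out barcode sequences present in more than 1 library, kept all 277 of 277 ratios in place. The trimmed mean of M values kept 196 and turned 6. The cause of the changes below was not tested.

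For mammary over AT2, Slc16a3 turned to log2 -0.33 under a 10% mitochondrial limit and to -0.15 without its top barcode, and with a mammary rule of 0.5%, added after seeing the data, 23 members were higher and 7 lower. For AT2 over endothelium in the early library the trimmed mean of M values gave 15 higher and 5 lower and turned Pgk1 (0.17) and Bpgm (0.0025), and taking background off gave 14 lower. In the late library that scaling gave 19 higher and 4 lower and turned Slc2a1 (0.063), Pfkl (0.12), Aldoa (0.26) and Pdk1 (0.22), and totals without surfactant and milk genes gave 6 lower. For mural over endothelium in the late library, leaving out barcodes that met more than 1 rule gave 7 higher and turned Eno3 (-0.10).

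For early over late AT2 barcodes, 5 were higher with background off, which turned Eno2 (-1.30), and 1 without barcodes of more than 1 rule, where Eno2 was at -0.11. In endothelium 2 were lower with the trimmed mean of M values, with no count minimum and without barcodes of more than 1 rule, 0 without each gene's top barcode, and with background off 3 were higher and 2 lower. In mural barcodes 0 were lower at equal weight per barcode and without those of more than 1 rule. For HER2-negative over HER2-positive endothelium 1 was higher at the highest barcode minimum tried, Eno3 turned at equal weight (-0.37) and without its top barcode (-0.13), and background off gave 4 higher and 3 lower and turned Pfkfb2 (1.02). Leaving out erythroid barcodes, also added after seeing the data, moved none of 57 ratios.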

Other observations

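In the late library 171 barcodes met no class rule, and 42 of them had 5 or more UMIs of Gata3, Trps1, Elf5, Epcam and Erbb2, genes of mammary epithelium among others, a division made after seeing the data. Aldoc was at 686 CPM in those 42 and at 9.46 CPM in the other 129. Aldoa was at 2080.5 against 248 CPM and Eno1 at 774 against 43.5 CPM. For Aldoa and Eno1 the 42 were nearer to the mammary class (1657 and 684 CPM) than to the late AT2 class (189 and 12.1 CPM). Their Aldoc level lay between the 1995 CPM of the mammary class and the 11.1 CPM of the late AT2 class.

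Among the mammary barcodes, the 14 with 3 or more UMIs of division genes also had the lower Aldoa level, 630 CPM (555 to 712) against 1784 CPM (1739 to 1830) in the other 147. Pkm was at 1118 against 1107 CPM and Pgk1 at 34.5 against 30.7 CPM. The intervals of Pkm and of Pgk1 overlapped.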
